A study of Mus musculus with 24 samples.

Results

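Potassium channel genes were taken as all gene symbols of the count files that begin with Kcn, other than the Kcne genes, Kcnq1ot1 and symbols that end in os or -ps, which gave 91 members among the 49568 symbols of each file. Of the 91, 89 are genes of channel subunits or of proteins that bind them, and the other 2, Kcnmb4os1 and Kcnmb4os2, are RNAs transcribed opposite to Kcnmb4 that the rule kept because their names end in a digit. The 99 symbols beginning with Kcn also held 5 Kcne genes, Kcnq1ot1 and 2 opposite-strand RNAs, which were left out. After edgeR's filter on low counts 81 members were tested among 20187 genes, and the 10 that were not tested are accounted for with the levels. All 91 were found in the GENCODE M21 annotation of GRCm38, from which positions and exon lengths were taken.

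Potassium channels let potassium leave or enter cells and set the resting potential, the shape and frequency of action potentials and, in glia, the clearance of potassium released by neurons. Voltage-gated (Kv) channels open on depolarisation, the Kv7 channels carry the M-current that restrains repetitive firing, calcium-activated channels couple firing to after-hyperpolarisation, inward rectifiers (Kir) pass current near rest, and tandem-pore channels give background leak. In the hippocampus Kv4 channels with their KChIP partners shape the A-type current of pyramidal cell dendrites, and MSK1, the kinase studied here, is a nuclear kinase that phosphorylates the transcription factor CREB and histone H3.

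RNA came from the hippocampus of Aged male mice, 21 to 23 months old and of C57-Bl/6J background, in 24 libraries of 1 mouse each. The 4 groups of 6 mice were WT mice in standard housing (WTSH), WT mice in enriched housing (WTEE), MSK1 KD mice in standard housing (KDSH) and MSK1 KD mice in enriched housing (KDEE). Enriched mice lived from 18 months of age in rat cages that held toys and a running wheel, and MSK1 KD mice carry a point mutation in their own MSK1 gene, in every cell, that abolishes its kinase activity, and were bred as a homozygous line apart from the WT line, so that genotype and line cannot be told apart. The 3 libraries that the methods exclude, samples 4 and 7 of WTSH and sample 6 of KDSH, stayed out of the tests, which used 21 libraries, 4 of WTSH, 6 of WTEE, 5 of KDSH and 6 of KDEE. Samples 1 to 8 were all standard-housed, samples 9 to 17 all enriched and samples 18 to 24 of both, so housing is partly tied to sample number. What the numbers stand for is not in the labels. Levels are normalised counts, raw counts brought to a common depth by TMM, and levels of different genes are compared only per kb of exon.

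The tested libraries held 27410239 to 71907130 counts on genes, of which the potassium channel genes took 0.401% to 0.577%. The MSK1 gene Rps6ka5 had 1119 ± 101 normalised counts in WTSH (SD, n = 4) and 1158 ± 21.9 in KDSH (SD, n = 5), which does not check the labels, since a point mutation leaves the RNA in place. Neuronal markers were present in every library, with a summed level of 6 genes of 355689 normalised counts in WTEE sample 10 and 463260 to 544756 in the others. Choroid plexus markers stood apart in 5 tested libraries, WTSH sample 19, WTEE samples 10 and 13 and KDEE samples 12 and 14, in which 9 marker genes summed to 131346 to 476716 normalised counts against 1451 to 5959 in the other 19. Pituitary markers (6 genes) summed to 11834 in KDSH sample 8 and 20814 in KDSH sample 6 against at most 1349.6 elsewhere. WTEE sample 10 also stood apart in the channel genes themselves, and results that rest on it are given with and without it. Each library is 1 mouse, so p values measure the spread between mice. Housing was given by cage and the cage of each mouse is not in the labels. The tests treat mice as independent, and cage and housing cannot be separated. In whole tissue, fewer cells of a type and less RNA per cell cannot be told apart.

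Per kb of exon the auxiliary subunits held 29.4% of the summed level of all members and the inward rectifiers 18.2%, followed by Kv3 with 10.4%. The next were the silent Kv subunits, which form no channels alone and join Kv2 channels, with 7.77%, Kv7 with 7.3%, Kv1 with 6.3% and the tandem-pore channels with 6.09%. Kv10 to Kv12 held 4.82%, the calcium- or sodium-activated channels 3.77%, and Kv4 3.7%. These shares are sums over unequal numbers of genes, from 3 members in Kv4 to 15 inward rectifiers, and they compare levels, not currents.

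**Figure D1:**
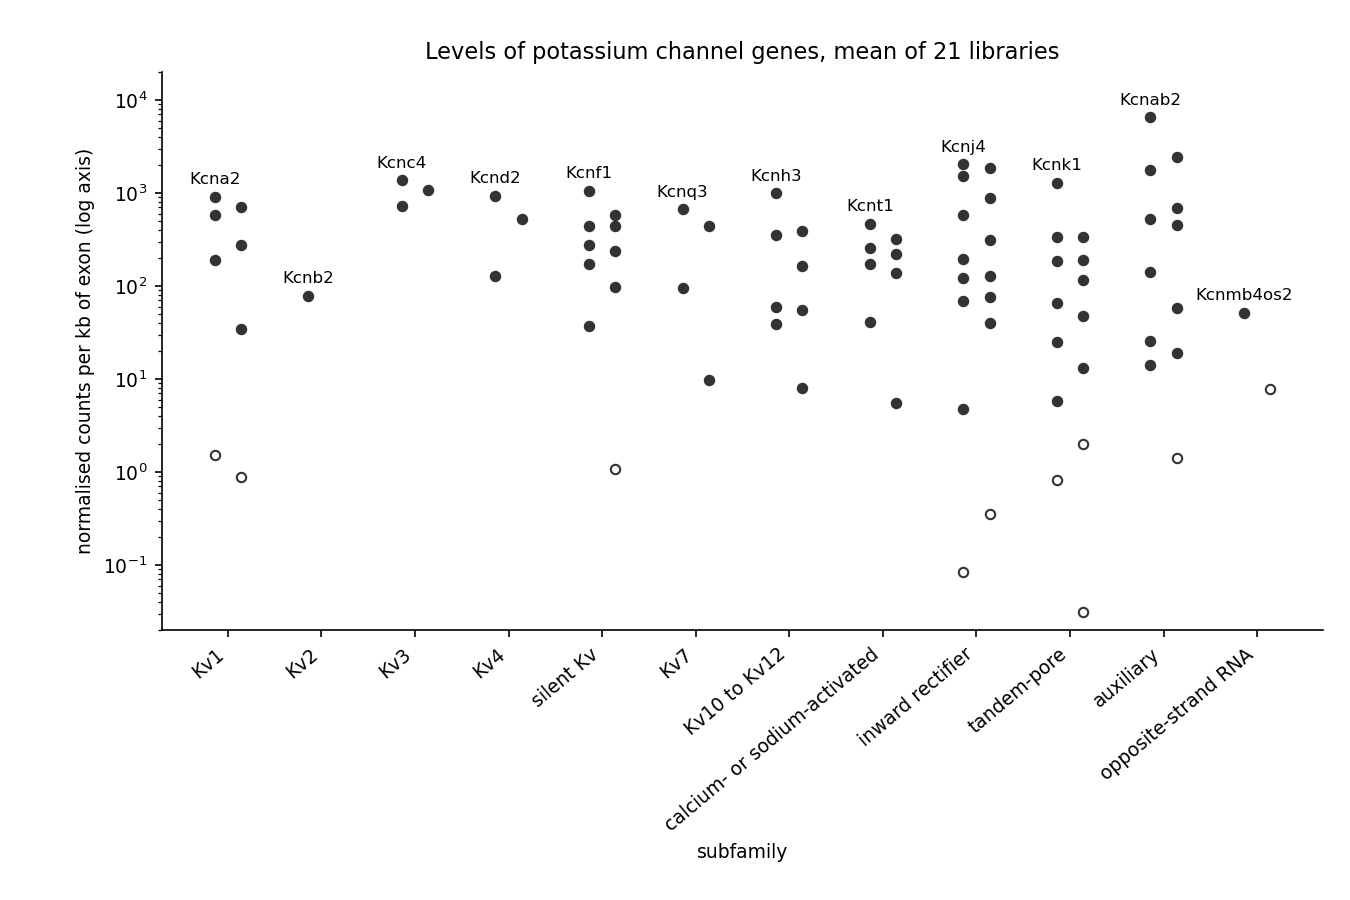
Mean level of 88 of the 91 potassium channel genes over the 21 tested libraries, in normalised counts per kb of exon on a log axis, by subfamily, with open circles for the 10 members left out by the filter on low counts. The highest gene drawn in each subfamily is named, from Kcnab2 at 6491 to Kcnmb4os2 at 51.5, and the untested members lie at or below 7.73.

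Among auxiliary subunits, Kcnab2, a beta subunit of Kv1 channels, had the highest level of any member, 6491 normalised counts per kb, followed by the KChIP genes Kcnip2 at 2419.6 and Kcnip3 at 1776. Kcnip3 also encodes DREAM, a calcium-binding repressor of transcription. Kcnab2 had 38217, 39140, 34382 and 33744 normalised counts in WTSH, 31916 to 39524 with a median of 35948 in WTEE, 37120, 41510, 33632, 31905 and 32043 in KDSH and 33044 to 38795 with a median of 37247 in KDEE, so the groups overlapped.

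The inward rectifiers were led by Kcnj4 (Kir2.3) at 2031 normalised counts per kb, Kcnj10 (Kir4.1, the main glial potassium-buffering channel) at 1835 and Kcnj9 (Kir3.3, a subunit of G protein-gated channels) at 1534. In Kv3, Kcnc4 (Kv3.4) had 1363 and Kcnc1 (Kv3.1) 1090.3. In Kv7, Kcnq3 (Kv7.3), an M-channel subunit, had 667 and Kcnq5 439. Kcnf1 (1052), Kcng1 (583) and Kcnv1 (440.3) led the silent subunits, and Kcnd2 (931), Kcnd3 (527) and Kcnd1 (128) made up Kv4.

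Kv1 was led by Kcna2 (914 normalised counts per kb), Kcna1 (704) and Kcna6 (578), and Kcnb2 of Kv2 had 78.7. Kcnh3 (997), Kcnh2 (390.3) and Kcnh1 (357) led Kv10 to Kv12. Of the channels gated by intracellular ions, the sodium-activated Kcnt1 (468) was followed by the small-conductance channel gene Kcnn2 (317) and by Kcnma1 (257), the pore of the BK channel. Of the tandem-pore genes Kcnk1 (TWIK1) had 1288, and Kcnk12 and Kcnk2 (TREK1) followed at 336 and 336. These levels rest on the length used, and with the longest transcript in place of all exons Kcnab2 had 9232 normalised counts per kb and Kcnn2 642.

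The 10 untested members were Kcna7, Kcna10, Kcnj1, Kcnj15, Kcnk15, Kcnk16, Kcnk18, Kcnmb3, Kcnv2 and Kcnmb4os1, and none had more than 14 counts in a library. Kcnj1 and Kcnk16 had at most 3 and 1 counts in any library, within the floor of 3 counts used here. Kcnj1 is the ROMK channel of the kidney, and Kcnk16 and Kcnk18 encode TALK1 and TRESK. Exons of 29 members overlap those of another gene, and counting ignored strand. Reads that fell in several genes were counted for none, so the levels per kb of these members can be too low. The overlap covered 49.1% of the exons of Kcnj13 (with Gigyf2), 39.6% of Kcna6, 31.5% of Kcnmb4 (with its opposite-strand RNAs) and 31.1% of Kcnj3.

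Since MSK1 acts through CREB, the windows from 250 bases before to 50 bases after the start of each gene (RefSeq, GRCm38.p6) were searched on both strands for the full CREB motif TGACGTCA and for its shorter form TGACG, which also lies within the full motif. Of the 91 members 66 matched the table, with 89 windows. The full motif was in 0 of these 89 windows and in 1.79% of all 32851 windows, and the short form was in 16 of the 89 (18%) and in 20.8% of all windows. Windows with the short form are shown for the member of highest level (Kcnab2), for the member with the largest fold difference of the 2 at unadjusted p under 0.05 between WTEE and WTSH (Kcnj4) and for the one with the smallest p between KDEE and KDSH (Kcnt2), read 5′ to 3′ along the gene with TGACG or its reverse complement in capitals.
Kcnab2 (chr4:152477500-152477799, minus strand): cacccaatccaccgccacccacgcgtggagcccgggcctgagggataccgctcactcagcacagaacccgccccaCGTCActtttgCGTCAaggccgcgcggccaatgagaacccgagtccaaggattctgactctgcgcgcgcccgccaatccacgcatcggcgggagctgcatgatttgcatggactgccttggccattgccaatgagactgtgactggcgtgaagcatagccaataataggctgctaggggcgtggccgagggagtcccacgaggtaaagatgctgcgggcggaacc
Kcnj4 (chr15:79505192-79505491, minus strand): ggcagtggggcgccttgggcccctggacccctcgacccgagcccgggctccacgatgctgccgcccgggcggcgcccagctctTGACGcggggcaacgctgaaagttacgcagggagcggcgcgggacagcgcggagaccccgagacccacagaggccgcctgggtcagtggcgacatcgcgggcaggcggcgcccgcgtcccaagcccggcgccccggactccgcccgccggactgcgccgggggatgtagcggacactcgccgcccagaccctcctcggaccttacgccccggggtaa
Kcnt2 (chr1:140245468-140245767, plus strand): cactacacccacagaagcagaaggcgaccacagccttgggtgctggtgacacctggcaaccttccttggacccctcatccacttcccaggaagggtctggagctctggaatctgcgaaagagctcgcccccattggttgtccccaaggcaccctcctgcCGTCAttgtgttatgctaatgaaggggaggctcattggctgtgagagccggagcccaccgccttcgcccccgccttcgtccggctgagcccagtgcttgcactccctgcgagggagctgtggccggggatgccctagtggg
The match starts 167 bases before the start site in Kcnj4 and 91 before it in Kcnt2, and Kcnab2 holds 2 matches, the first 175 bases before the start. These distances are from the RefSeq starts, which differ from those of GENCODE, the source of the gene positions. The whole Kcnt2 window lies before the GENCODE start of that gene, and the Kcnab2 window lies inside its GENCODE gene. A match of letters is a description and no measure of binding, and its absence says only that these letters are not in the window.

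Between mice of a group, Kcnj13 (Kir7.1, a channel of choroid plexus epithelium) varied most, with a within-group SD of 2.47 on the log2 CPM scale. It had 7.43, 9.94, 238 and 8.02 normalised counts in WTSH, 13.8, 0, 9.4, 8.57 and 4.7 in KDSH, 2.2 to 392 with a median of 12.1 in WTEE and 2.05 to 739 with a median of 10.4 in KDEE. Only the 5 libraries with high choroid plexus markers had more than 14.1 normalised counts of Kcnj13, and no library of KDSH was among them. Ttr, the main choroid plexus transcript, was at 119830 to 434939 normalised counts in these 5 and at most 4209.6 in the other 19 libraries. Reads in the 623 bases that Kcnj13 shares with Gigyf2 exons were counted for neither gene, so its levels can be too low.

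**Figure D2:**
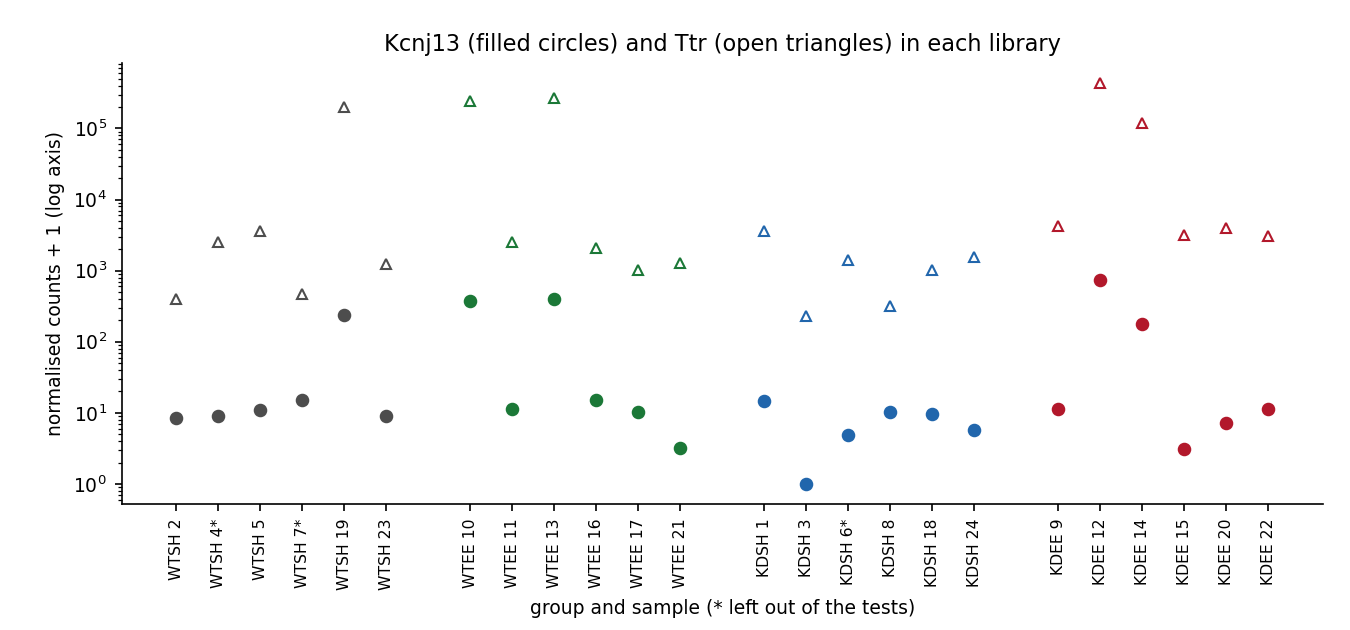
Normalised counts plus 1, on a log axis, of Kcnj13 (filled circles) and Ttr (open triangles) in each of the 24 libraries, by group, with an asterisk on the samples left out of the tests. Both are high in WTSH sample 19, WTEE samples 10 and 13 and KDEE samples 12 and 14, where Kcnj13 reaches 176 to 739, and Kcnj13 is at most 14.1 in every other library.

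The next most variable were Kcnk9 (TASK3, 0.884), Kcna3 (0.71), Kcng3 (0.692) and Kcna1 (Kv1.1, 0.664), all through WTEE sample 10. Kcnk9 had 48.2 normalised counts in that library and 611 to 839 in the other 5 of WTEE, and Kcna1 had 474 against 3183 to 3900.5. The least variable tested members were Kcnc2 (Kv3.2, 0.0665), Kcnab1 (0.0704), Kcna6 (0.0846), Kcnj3 (Kir3.1, 0.0889) and Kcnn1 (0.0942). Kcnc2, a channel of fast-spiking interneurons, had 5308 ± 371 (SD, n = 4) normalised counts in WTSH, 4957 ± 182 (SD, n = 6) in WTEE, 5337 ± 103 (SD, n = 5) in KDSH and 5106 ± 252 (SD, n = 6) in KDEE.

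In WTEE sample 10 the low members of higher level were mostly genes with long exons. Of the 55 members with a mean log2 CPM over 3, 6 lay more than 1 log2 unit below the mean of the other WTEE mice (10.9%, against 4.25% of 10603 genes at that level): Kcnk9 (−3.86), Kcna1 (−2.89), Kcnma1 (−2.22), Kcnj6 (−2.0), Kcnn3 (−1.21) and Kcns2 (−1.14). The 18 members with the longest exons had a median difference of −0.83 in that library and the 18 with the shortest 0.11, and Kcnj4 (0.37), Kcnk13 (0.27), Kcnip4 (0.26) and Kcna6 (0.24) were the highest. Across the 55 members the difference had a Pearson correlation of −0.55 with log2 exon length, and of −0.61 across the 10603 genes. The points of these correlations share 1 library and are not independent. Below that level, Kcna3 (1902 bases of exon) and Kcng3 (3356 bases) also lay low in sample 10, at −2.92 and −2.63.

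The same 6 members were lower than the rest of the group in KDEE sample 15 (median −0.49) and in the KDSH sample 6 that was left out (median −0.65). All 6 were also below the rest of the group in WTSH samples 2 and 19 and KDSH sample 1, with medians of −0.13, −0.09 and −0.17. Kcnk9 differed by −0.62 in sample 15 and by −1.01 in sample 6. With shorter exons, Kcna3 differed by −0.77 and −1.35 in samples 15 and 6, and Kcng3 by −0.61 and −0.92. The correlation with exon length across the 55 members was −0.67 in sample 15, −0.70 in sample 6 and −0.58 in WTSH sample 2. It reached 0.63 in KDEE sample 20 and 0.61 in WTEE sample 21, where longer genes were higher relative to the rest of the group. That rest includes sample 15 for KDEE sample 20 and sample 10 for WTEE sample 21. The correlation was 0.54, 0.01, 0.44 and 0.42 in WTEE samples 11, 13, 16 and 17. The part of samples 10 and 15 in these positive values was not tested. The mitochondrial share of counts was 6.23% in WTEE sample 10, the highest of the tested libraries, against 3.51% to 4.97% in the other 20. WTEE sample 10 also had the lowest summed neuronal markers (355689 normalised counts) and hippocampal subfield markers (23443.5) of all libraries. Its summed interneuron markers (42160.5) lay within the range of the others. The parts of RNA quality and of cell content in these levels were not tested.

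**Figure D3:**
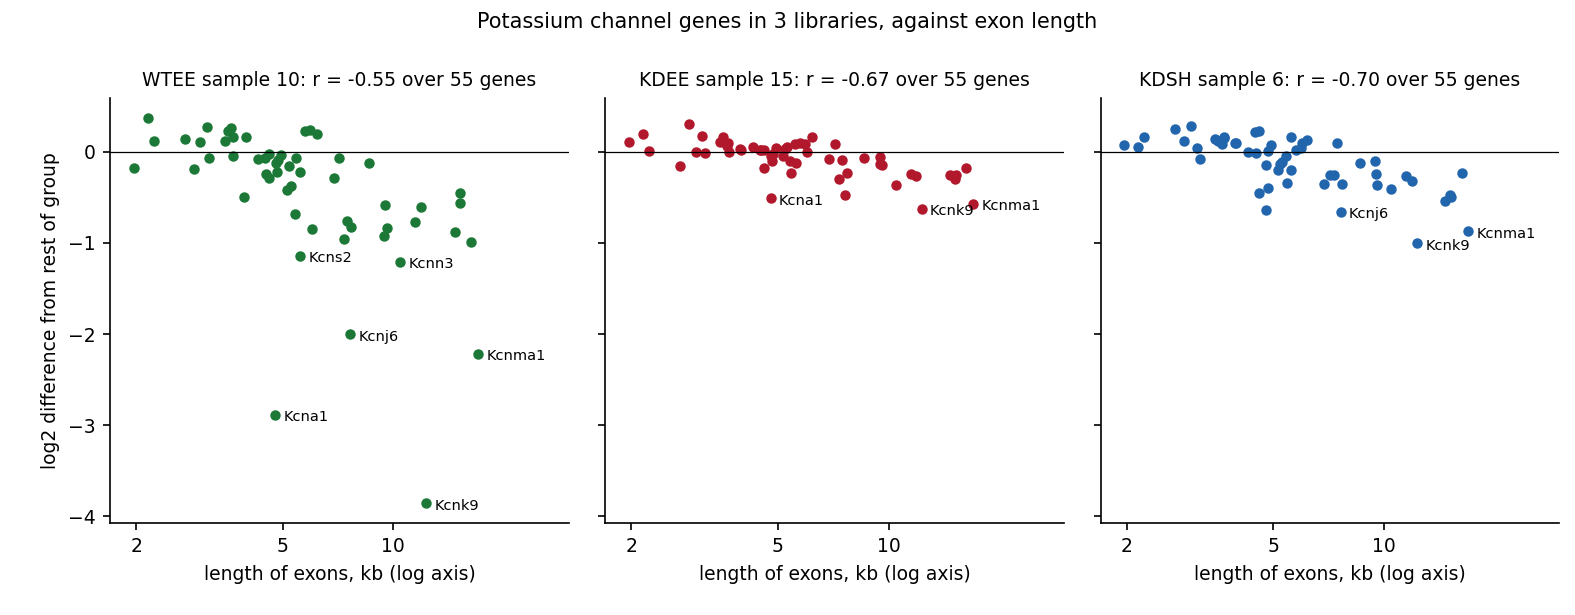
Log2 difference of each of 55 potassium channel genes from the mean of the other tested mice of its group, against the length of its exons in kb on a log axis, in WTEE sample 10, KDEE sample 15 and KDSH sample 6. Among these 55 genes the lowest values in the 3 libraries are mostly those of genes with long exons. Kcna1, with 4.78 kb, is also low, and Kcna3 and Kcng3, with shorter exons, are not drawn. The scale of the difference is largest in WTEE sample 10, where Kcnk9 reaches −3.86.

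Summed by subfamily, in normalised counts per kb (mean ± SD over mice, n = 4, 6, 5 and 6 in WTSH, WTEE, KDSH and KDEE), the groups were set side by side with no test. The 12 auxiliary subunits held 12670 ± 692 in WTSH, 12690 ± 404 in WTEE, 12477 ± 1043 in KDSH and 12634 ± 619 in KDEE. The 15 inward rectifiers held 7662 ± 239 in WTSH, 7878 ± 487 in WTEE, 7543 ± 266 in KDSH and 8034 ± 152 in KDEE. The 14 tandem-pore channels held 2595 ± 55.6 in WTSH, 2687 ± 129.8 in WTEE, 2488 ± 64.2 in KDSH and 2658 ± 184 in KDEE. In WTEE sample 10 these 3 sums were 12335, 7584 and 2729.

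Among the Kv families, Kv3, the channels of fast-spiking cells, held 4645 ± 546 in WTSH, 4299 ± 463 in WTEE, 4667 ± 325 in KDSH and 4366 ± 161 in KDEE. Kv1 held 2810.2 ± 329.9 in WTSH, 2547 ± 443 in WTEE, 2779 ± 202 in KDSH and 2722 ± 293 in KDEE. For Kv1 the value of WTEE sample 10 was 1668, the lowest of the group. Kv4 held 1632 ± 48.4 in WTSH, 1535 ± 216 in WTEE, 1659.8 ± 34.7 in KDSH and 1546 ± 92.3 in KDEE. The silent subunits held 3402 ± 188 in WTSH, 3165 ± 224 in WTEE, 3599.9 ± 283 in KDSH and 3238 ± 174 in KDEE. Kv10 to Kv12 held 2091 ± 45.5 in WTSH, 2059 ± 113 in WTEE, 2105 ± 155 in KDSH and 2033 ± 64 in KDEE. The calcium- or sodium-activated channels held 1683 ± 135 in WTSH, 1515 ± 245 in WTEE, 1764 ± 137 in KDSH and 1559 ± 145 in KDEE. Kv7 held 3426 ± 81.2 in KDSH and 3037 ± 235 in KDEE. The means of KDSH and KDEE lay apart by more than either SD for the inward rectifiers, which were higher in KDEE, and for Kv4, Kv7, the silent subunits and the calcium- or sodium-activated channels, which were lower. The means of WTSH and WTEE did so for the silent subunits, lower in WTEE, and those of WTSH and KDSH for the tandem-pore channels, lower in KDSH. In each simple comparison the ranges still overlapped for all of these families and for the 3 subfamilies above.

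The excluded libraries, samples 4 and 7 of WTSH and sample 6 of KDSH, had sums of 2895, 3160.2 and 2123 for Kv1, 3562, 3746 and 2763 for Kv7 and 6775, 7562 and 7477 for the inward rectifiers, in that order. WTSH samples 4 and 7, with 15800187 and 23318036 counts on genes, were both above the range of the other 4 WTSH mice for 12 of the 81 tested members and both below it for 6. The same count over all genes was not made, so these numbers show nothing particular to channel genes. Reads in no gene were 32.2% and 33.0% in samples 4 and 7, against at most 15.7% in the tested libraries. Farthest above was Kcnrg, a regulator of Kv assembly, with 48.3 and 53.4 normalised counts against 28.7, 22.9, 27.2 and 25.1. Kcng3 (278 and 264 against at most 183), Kcnh5, Kcnj6 and Kcnq3 followed. Below the range in both were Kcns1, Kcnu1, Kcnab3, Kcnk3 and Kcnip1, as for Kcns1 with 575 and 563 against at least 623.

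The first comparison asked how enrichment altered hippocampal expression in WT mice. No potassium channel gene was called between WTEE and WTSH at an adjusted p under 0.05 with a log2 fold change past 0.38 in either direction (edgeR's quasi-likelihood test, Benjamini-Hochberg adjustment over 20187 genes), nor was any other gene (0%). DESeq2 on the same 21 libraries called 2 genes and 0 members. At an unadjusted p under 0.05 lay 2 of 81 members (2.47%), both higher in WTEE, against 6.55% of all genes, so the share of members was below that of all genes. The direction rested on the libraries: without the 5 choroid plexus-rich libraries 0 were higher and 3 lower (Kcnc2, Kcnc4 and Kcng1, named after their values were seen), and without WTEE sample 16 0 were higher and 4 lower. These were 3.66% and 4.94% of members, against 4.93% and 8.84% of all genes. With samples 4, 7 and 6 included the count was 16 of 81, 5 higher and 11 lower in WTEE, when 18.3% of all genes had such a p.

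Kcnip1 (chromosome 11), a KChIP of interneurons, had 799, 854, 859 and 853 normalised counts in WTSH and 852 to 1068 with a median of 957 in WTEE. The lowest WTEE mouse lay within the WTSH range and the other 5 above it. The log2 fold change was 0.19 ± 0.08 (SE), with an unadjusted p of 0.029 and an adjusted p of 0.651 by edgeR. Kcnj4, which encodes a strongly rectifying channel of forebrain neurons, had 4339, 3918, 3566 and 4416 in WTSH and 3609 to 5781 with a median of 4829 in WTEE, a log2 fold change of 0.21 ± 0.10 (SE) with an unadjusted p of 0.0414 and an adjusted p of 0.651 (edgeR). The highest value of both genes was that of WTEE sample 10, and without it the log2 fold changes were 0.16 and 0.15 (unadjusted p = 0.0547 and 0.098, edgeR). Without the 5 libraries rich in choroid plexus markers that of Kcnj4 was 0.05. Of 6 interneuron markers 1 was higher and 1 lower in WTEE at an unadjusted p under 0.05, all 5 blood markers were higher (median log2 fold change 1.52) and 2 of 5 tested pituitary markers, Prl and Gh, were higher. The part of these in the channel values was not tested.

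Kcnq3 (chromosome 15, 65986387 to 66286642, minus strand) was the 1 member of 81 (1.23%) whose WTEE and WTSH mice did not overlap, against 0.986% of all genes. It had 10264, 10595, 10214 and 11089 normalised counts in WTSH and 5196 to 9998 with a median of 9694 in WTEE, so every WTEE mouse lay below every WTSH mouse, sample 10 farthest. The log2 fold change was −0.25 ± 0.12 (SE) with an unadjusted p of 0.0542 by edgeR, and it was −0.13 without sample 10. The exact two-sided permutation test of mean log2 CPM gave p = 0.1. Samples 4 and 7 of WTSH were higher still, at 12347 and 13159.

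The summed level of the 5 Kv7 genes per kb was 3356 ± 146 in WTSH (SD, n = 4) and 2834 ± 617 in WTEE (SD, n = 6), where the SD of WTEE came from sample 10 at 1624. The median log2 fold change of the 81 members was −0.05 against 0.01 for all genes, and −0.02 without sample 10.

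**Figure D4:**
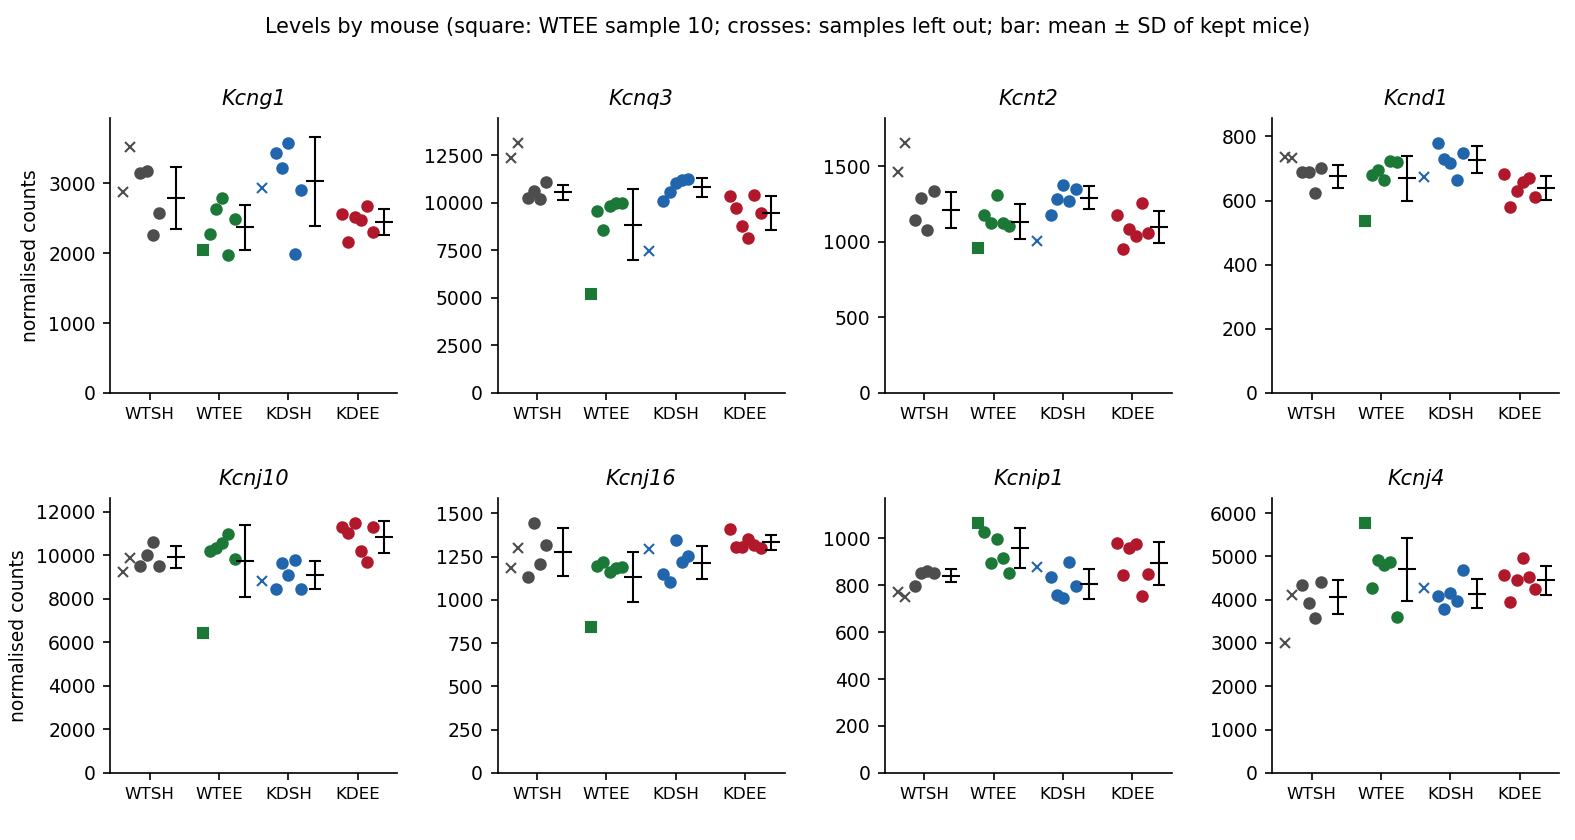
Normalised counts of 8 potassium channel genes in each mouse by group, with the mean ± SD of the tested mice beside the points, a square for WTEE sample 10 and crosses for the samples left out. Every WTEE mouse lies below the tested WTSH mice for Kcnq3, every KDEE mouse lies above every WTEE mouse for Kcnj16, and these genes overlap between the groups of the other simple comparisons.

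In MSK1 KD mice the same question was asked with KDEE against KDSH. No member was called, as no gene was (0%) by edgeR, while DESeq2 called 14 genes and 0 members, and 9 of 81 members (11.1%) had an unadjusted p under 0.05, close to the 11.6% of all genes. Higher in KDEE were 5 members (6.17%, against 5.64% of all genes), Kcnj10 and Kcnj13 of the inward rectifiers and Kcnk1, Kcnk5 and Kcnk13 of the tandem-pore channels. Lower were 4 (4.94%, against 5.98%), Kcnt2, Kcnd1, Kcng1 and Kcnf1. The balance moved towards lower members in other fits, to 3 higher and 16 lower with only the 2 groups in the fit, 3 and 10 without the 5 choroid plexus-rich libraries and 7 and 15 without WTEE sample 10. The inward rectifier Kcnj6 and the tandem-pore Kcnk9, named after their values were seen, were among the lower members of the last pair of fits. With only the 2 groups these were 24.1% of members, against 20.5% of all genes (1813 higher, 2046 lower). The shares were 15.9% against 12.3% (1195 and 1275) without the choroid plexus-rich libraries and 27.2% against 22.1% (2367 and 2066) without sample 10. The groups overlapped for all 81 members, whereas 1.84% of all genes had groups apart.

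Kcnj10 (chromosome 1, 172341210 to 172374085, plus strand), the astrocytic and oligodendrocytic Kir4.1, had 8436, 9649.8, 9105, 9783 and 8446 normalised counts in KDSH and 9707 to 11503 with a median of 11166 in KDEE. Only the lowest KDEE mouse, sample 20, lay inside the KDSH range. The log2 fold change was 0.25 ± 0.10 (SE) with an unadjusted p of 0.0153 and an adjusted p of 0.383 by edgeR, and the exact two-sided permutation test gave p = 0.00649. In the fit without WTEE sample 10, which is in neither group but adds to the shared spread, edgeR gave an unadjusted p of 7.96e-05 and an adjusted p of 0.0794. Its subfamily mate Kcnj16 (Kir5.1), which pairs with Kir4.1 in glia, had 1149.9, 1102, 1345, 1218 and 1256 in KDSH and 1298 to 1409.5 with a median of 1313 in KDEE (log2 fold change 0.13 ± 0.08 (SE), unadjusted p = 0.118 by edgeR).

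Oligodendrocyte markers differed in the same direction as Kcnj10 in this comparison: 5 of 6 had an unadjusted p under 0.05 and were higher in KDEE, as were 2 of 3 oligodendrocyte precursor markers (Olig2 and Pdgfra), 1 of 6 astrocyte markers (Gfap) and all 5 blood markers (median log2 fold change 1.40). Summed oligodendrocyte markers ranged from 258797 to 372184 normalised counts in KDSH and from 310592 to 392941 in KDEE, and summed astrocyte markers from 188495 to 235006 and from 196877 to 239841. None of the 6 neuronal markers had an unadjusted p under 0.05. The part of these cell types in the channel values was not tested.

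Kcnj13 had the largest difference of any member, a log2 fold change of 4.39 ± 1.68 (SE) with an unadjusted p of 0.0164 and an adjusted p of 0.383 by edgeR, and all 9 choroid plexus markers were higher in KDEE at an unadjusted p under 0.05. Without the 5 libraries rich in these markers the log2 fold change of Kcnj13 was −0.06. That of Kcnk1, a leak channel of astrocytes and neurons, was 0.17 ± 0.08 (SE) (edgeR, unadjusted p = 0.0345) with all libraries and 0.07 without them. Kcnk1 had 2593, 2742, 2653, 2506 and 2580.5 normalised counts in KDSH and 2413 to 3629.9 with a median of 2877 in KDEE, with the highest value in the choroid plexus-rich KDEE sample 12.

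Kcnk5 (TASK2) had few counts, 41.4, 39.6, 21.9, 52.4 and 20 normalised counts in KDSH and 26.7 to 65.9 with a median of 59.8 in KDEE, and a log2 fold change of 0.58 ± 0.25 (SE). Kcnk13 (THIK1, a channel of microglia) had 527, 611, 478, 689 and 448 in KDSH and 604 to 722 with a median of 657 in KDEE, a log2 fold change of 0.25 ± 0.11 (SE). The ranges overlapped for both, and edgeR gave unadjusted p values of 0.028 and 0.0417. No microglial marker of 4 had an unadjusted p under 0.05.

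Among the lower members, Kcnt2, a sodium-activated channel gene (chromosome 1, 140246158 to 140612067, plus strand), had the smallest p of any member in this comparison. It had 1181, 1284, 1378, 1271 and 1348 normalised counts in KDSH and 953 to 1259 with a median of 1074 in KDEE, a log2 fold change of −0.24 ± 0.08 (SE) with an unadjusted p of 0.00725 and an adjusted p of 0.353 by edgeR. Kcnd1 (Kv4.1) had 781, 728, 717, 665 and 747 and 581 to 681 with a median of 644, a log2 fold change of −0.19 ± 0.07 (SE). The KDSH sample 6 that was left out had 1009 counts of Kcnt2, below every tested KDSH mouse, and 673 of Kcnd1, and with all 24 libraries the log2 fold changes were −0.18 and −0.16 (edgeR, unadjusted p = 0.0722 and 0.0233).

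The silent subunit genes Kcng1 and Kcnf1 had log2 fold changes of −0.31 ± 0.13 (SE) and −0.23 ± 0.10 (SE). Kcng1 had 3443, 3226 and 3585 normalised counts in KDSH samples 1, 3 and 8 and 1987 and 2901 in KDSH samples 18 and 24. Sample 18 was the lowest of all 11 MSK1 KD mice tested, and KDEE had 2156 to 2680 with a median of 2495. WTSH samples 2 and 5 had 3150 and 3180, and WTSH samples 19 and 23 had 2259 and 2582. The part of sample order in the values of Kcng1 was not tested. Kcnf1 had 5495, 5023, 7274, 4976 and 5900.1 in KDSH and 4262 to 5469.7 with a median of 4811 in KDEE. Both were highest in KDSH sample 8, the library rich in pituitary markers, of which 3 of 5 tested (Gh, Prl and Pomc) were lower in KDEE at an unadjusted p under 0.05. Without sample 8 the log2 fold changes were −0.24 and −0.13. The exact two-sided permutation test gave p = 0.0952 for Kcng1 and p = 0.0519 for Kcnf1. Leaving out single libraries moved the count of 9 members to 4 without KDEE sample 12, 5 without KDSH sample 1, 14 without KDEE sample 20 and 22 without WTEE sample 10, with all 9 among the 22 in the same direction. Of all genes 7.29%, 9.42%, 15.5% and 22.1% had an unadjusted p under 0.05 in these fits, in that order.

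The effect of the mutation in standard housing was asked with KDSH against WTSH. No member was called (0% of all genes), none of 81 had an unadjusted p under 0.05 by edgeR, against 1% of all genes, and none had groups that did not overlap, against 0.644%. By the Wald test of DESeq2 1 of 91 members (1.1%, against 0.99% of all genes) had an unadjusted p under 0.05 and 0 were called. The median log2 fold change of the members was 0.01 and that of all genes −0.00. The largest member difference was 3.16 log2 units in absolute size, and 0.47 without the 5 choroid plexus-rich libraries. At an unadjusted p under 0.05 by edgeR, 4 of 9 choroid plexus markers were lower in KDSH and 3 of 5 tested pituitary markers higher. The part of these tissues in the channel values was not tested. Without WTEE sample 10 Kcnj10 had a log2 fold change of −0.13 with an unadjusted p of 0.0412 by edgeR. Kcnj10 had 9907 ± 516 (SD, n = 4) normalised counts in WTSH and 9084 ± 639 (SD, n = 5) in KDSH, Kcnd2 4862 ± 192 and 4919 ± 161 and Kcnip3 6284 ± 730 and 6098 ± 508, in the same groups. The 95% confidence interval of the log2 fold change was −0.14 to 0.17 for Kcnd2 and −0.50 to 0.64 for Kcnma1, which is far wider.

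In enriched housing, KDEE against WTEE, no member was called by edgeR (0% of all genes) or by DESeq2, which called 118 genes, and 2 of 81 (2.47%, against 4.99% of all genes) had an unadjusted p under 0.05, Kcnj16 and Kcnip4. Kcnj16 (chromosome 11, 110968033 to 111027968, plus strand) had 845 to 1221 with a median of 1185 normalised counts in WTEE and 1298 to 1409.5 with a median of 1313 in KDEE. Every KDEE mouse lay above every WTEE mouse, the only member of which this was true, against 0.624% of all genes with groups apart in this comparison.

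The log2 fold change of Kcnj16 was 0.23 ± 0.08 (SE) with an unadjusted p of 0.00689 and an adjusted p of 0.458 by edgeR. The exact two-sided permutation test gave p = 0.00216, the smallest this test can give for 6 against 6. Groups of this size that do not overlap always give that value, so it adds nothing to the lack of overlap. WTEE sample 10 was the lowest, and the log2 fold change without that library was 0.16 (edgeR, unadjusted p = 0.00844). In standard housing the WTSH and KDSH mice overlapped, with 1132, 1447, 1208 and 1319 and 1149.9, 1102, 1345, 1218 and 1256. Of 6 astrocyte markers 3 (Aqp4, Gja1 and Slc1a3) were also higher in KDEE than in WTEE at an unadjusted p under 0.05, and their part in the value of Kcnj16 was not tested. Kcnip4, the KChIP that slows Kv4 inactivation, had 1756 to 2344 with a median of 2047 in WTEE and 1714 to 1969.8 with a median of 1838 in KDEE, a log2 fold change of −0.14 ± 0.06 (SE), and of −0.10 without sample 10, which had its highest WTEE value.

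Whether the enrichment difference itself depended on MSK1 was asked with the interaction, the log2 fold change of KDEE against KDSH minus that of WTEE against WTSH. No member was called by edgeR (0% of all genes) or by DESeq2, which called 20 genes, and 1 of 81 (1.23%) had an unadjusted p under 0.05, against 3.26% of all genes. It was Kcnj16, at 0.31 ± 0.12 (SE) (edgeR, unadjusted p = 0.0183, adjusted p = 1), with log2 fold changes of −0.17 ± 0.09 (SE) in WT and 0.13 ± 0.08 (SE) in MSK1 KD mice. Leaving out single libraries gave unadjusted p values of 0.00708 to 0.0559 for it. For Kcnj10 the interaction was 0.28 ± 0.14 (SE) (edgeR, unadjusted p = 0.0575), so its difference was not shown to depend on genotype. Without WTEE sample 10 it was 0.19 (edgeR, unadjusted p = 0.0243), and 2 of 6 astrocyte markers also had an interaction above 0 at an unadjusted p under 0.05. For the count over members, leaving out WTEE sample 10 gave 4 (4.94%, against 4.49% of all genes) and leaving out WTSH sample 5 gave 0 (against 3.63%).

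Averaged over genotypes, enriched against standard housing gave the most members at an unadjusted p under 0.05, 15 of 81 (18.5%), which was close to the 18.9% of all genes. Lower in enriched mice were 11 (13.6%, against 9.13% of all genes) and higher were 4 (4.94%, against 9.77%). No member was called, the smallest adjusted p being 0.202 by edgeR, while 0.00495% of all genes, a single one, were, and DESeq2 called 41 genes and 0 members. This comparison shares its libraries with the comparisons within each genotype and is no further evidence for their members. Beside it, 5 of 6 oligodendrocyte markers, 7 of 9 choroid plexus markers, 5 of 5 blood markers and 2 of 6 interneuron markers were higher in enriched mice at an unadjusted p under 0.05, and their part in the channel values was not tested.

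The 11 lower members included Kcnq3 and Kcnq5 of Kv7, Kcnc2 of Kv3, Kcnd3 of Kv4, the silent subunits Kcnf1, Kcng1 and Kcng3, the small-conductance Kcnn3 and the sodium-activated Kcnt2. Kcnq3 had a log2 fold change of −0.22 ± 0.08 (SE) (edgeR, unadjusted p = 0.0159, adjusted p = 0.229), with 10079, 10545, 11025, 11202 and 11227 normalised counts in KDSH and 8125 to 10392 with a median of 9588 in KDEE beside the WT values above. Kcng1 (−0.27 ± 0.09 (SE)), Kcnt2 (−0.17 ± 0.06 (SE)) and Kcnf1 (−0.20 ± 0.07 (SE)) had the smallest p values of the lower members. Kcng3 had the largest fold change of the lower members, −0.60 ± 0.24 (SE), on low levels of 142 ± 42.1 (SD, n = 4) in WTSH, 92.7 ± 44 (SD, n = 6) in WTEE, 164 ± 32.9 (SD, n = 5) in KDSH and 109 ± 38.5 (SD, n = 6) in KDEE.

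The 4 higher were Kcnip1 (0.17 ± 0.06 (SE), edgeR, unadjusted p = 0.00627), Kcnk1 (0.15 ± 0.06 (SE)), Kcnj4 (0.16 ± 0.07 (SE)) and Kcnj13 (2.70 ± 1.11 (SE)). Without the 5 choroid plexus-rich libraries Kcnip1 had 0.16, Kcnk1 0.07, Kcnj4 0.10 and Kcnj13 0.03, and Kcnip1 was the 1 of the 4 that still had an unadjusted p under 0.05 (0.0165, edgeR).

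The lower members had longer exons than the higher ones. The median was 7689 bases over the 11 lower, 2194 over the 4 higher and 4557 over the 81 tested members. Across 80 members, with Kcnj13 set aside, the log2 fold change had a Pearson correlation of −0.40 with log2 exon length, −0.34 without WTEE sample 10 and −0.21 without the 5 choroid plexus-rich libraries, of which sample 10 is 1. Within MSK1 KD mice, which do not include sample 10, it was −0.31, and between the standard-housed groups 0.14. These points share libraries, and the part of exon length in the values was not tested.

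Without WTEE sample 10 the count was 22, with all 15 members among them in the same direction, 16 lower and 6 higher. That was 27.2% of members, against 18.8% of all genes (1893 lower and 1884 higher). The log2 fold changes were then smaller, −0.16 in place of −0.22 for Kcnq3 and −0.20 in place of −0.28 for Kcnn3. Added below were Kcnc1, Kcnj6, Kcnk9, Kcnma1 and Kcnn2 and above Kcnab3 and Kcnj10, which are named after their values were seen. Without WTSH sample 5 the count was 9 (11% of members, against 13.3% of all genes).

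**Figure D5:**
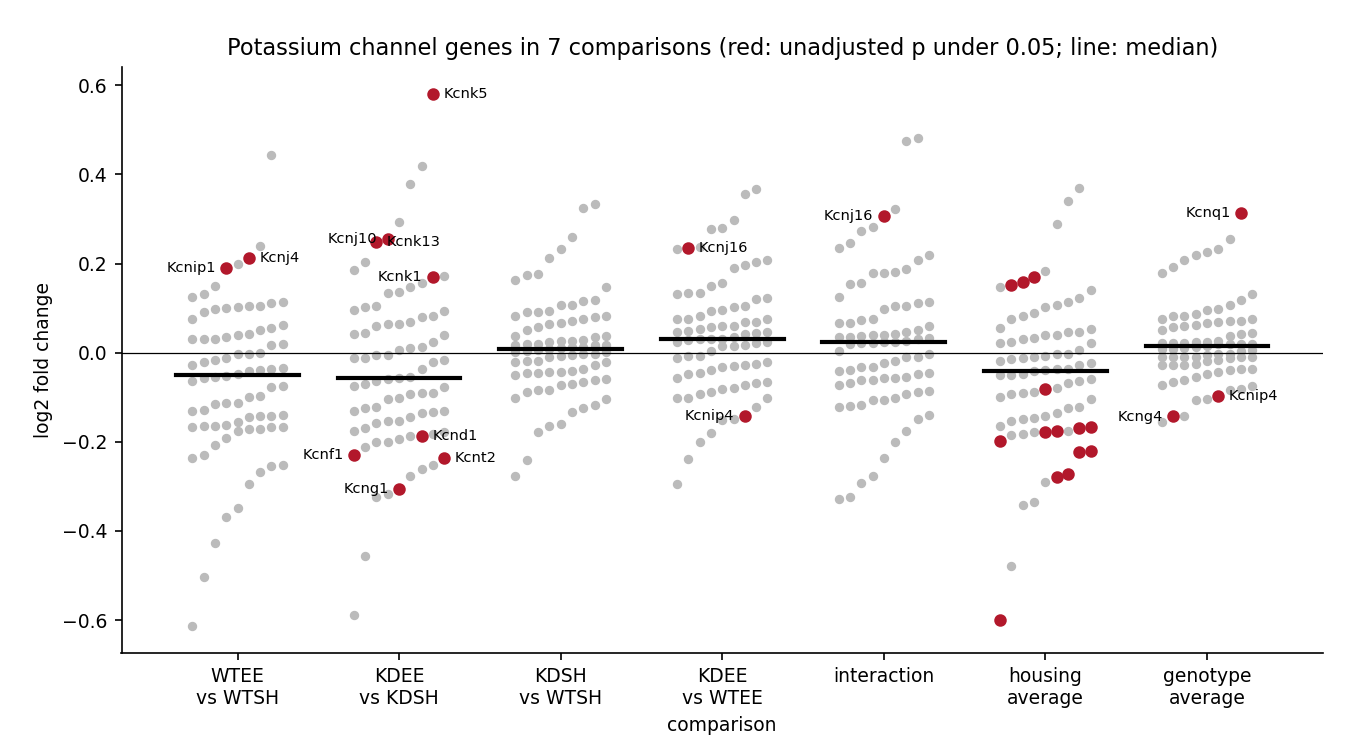
Log2 fold change of 80 tested potassium channel genes in each of the 7 comparisons, with Kcnj13 left out for its size (4.39 for KDEE vs KDSH), in red at an unadjusted p under 0.05 and with a line at the median. The medians lie between −0.06 and 0.03 over the 81 tested members, and none of the red points passed the adjusted threshold.

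Averaged over housing, MSK1 KD against WT gave 0 called members (0% of all genes) and 3 of 81 (3.7%) at an unadjusted p under 0.05, against 1.9% of all genes. Kcnq1 (Kv7.1, the cardiac channel) was higher in MSK1 KD mice by 0.31 ± 0.14 (SE) on levels of 38 ± 7.54 (SD, n = 4) normalised counts in WTSH, 33.6 ± 5.38 (SD, n = 6) in WTEE, 45.6 ± 14.5 (SD, n = 5) in KDSH and 43.6 ± 8.23 (SD, n = 6) in KDEE. Kcng4 (−0.14 ± 0.06 (SE)) and Kcnip4 (−0.10 ± 0.05 (SE)) were lower. The adjusted p of each was 1 by edgeR, and leaving out KDEE sample 20 or KDSH sample 24 gave a count of 0 (against 1.73% and 1.94% of all genes).

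The genes singled out for their known place in hippocampal excitability can be set side by side. Kcna2 had 11277 ± 1638 (SD, n = 4) normalised counts in WTSH, 10303 ± 1618 (SD, n = 6) in WTEE, 11283 ± 1456 (SD, n = 5) in KDSH and 10853 ± 1293 (SD, n = 6) in KDEE. Kcnd2 (Kv4.2) had, in the same order, 4862 ± 192, 4792 ± 598, 4919 ± 161 and 4664 ± 308. For both the groups overlapped in each simple comparison. Kcnma1 had 4838 ± 832, 3748 ± 1463, 5086 ± 822 and 4082 ± 912 and Kcnn2 2501 ± 277, 2231 ± 406, 2519 ± 118 and 2279 ± 117, again overlapping. In WTEE sample 10 these 4 genes had 7188, 3738, 918 and 1417.5, the lowest WTEE value of each.

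Genes that act with these channels but fall outside the rule were read from 3 lists. Of 12 auxiliary or partner proteins (11 tested) none was called and none had an unadjusted p under 0.05 in WTEE vs WTSH, KDSH vs WTSH, KDEE vs WTEE, the interaction or the genotype average, by edgeR. In KDEE vs KDSH Lrrc38, a gamma subunit of the BK channel, was higher (0.63 ± 0.22 (SE), 58.8 ± 20.1 normalised counts in KDSH and 91.7 ± 28.5 in KDEE) and Abcc8, the sulphonylurea receptor of ATP-sensitive channels, lower (−0.24 ± 0.11 (SE)), both at an unadjusted p under 0.05. In the housing average 1 of the 11 was higher (Lrrc38) and 2 lower (Abcc8 and Amigo1, a partner of Kv channels). For Lrrc38 and Abcc8 the adjusted p values in KDEE vs KDSH were 0.367 and 0.419 (edgeR).

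None of 5 genes, the HCN channels and their partner Pex5l, had an unadjusted p under 0.05 in any of the 7 comparisons, and none was called by edgeR. HCN channels carry the depolarising current that opposes potassium currents near rest. Of 10 sodium-potassium pump and potassium-chloride transporter genes 2 were higher in KDEE vs KDSH at an unadjusted p under 0.05, the pump subunit Atp1b3 (0.25 ± 0.10 (SE)) and the transporter Slc12a7 (0.58 ± 0.24 (SE)). In the housing average 1 was higher (Atp1b3) and 1 lower, and in the other 5 comparisons none had an unadjusted p under 0.05 and 0 were called (edgeR).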

How the data were processed

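Hippocampal RNA of 24 Aged mice was sequenced by the study from poly(A)-selected TruSeq libraries. Per the study's methods and its processing notes, the authors checked reads with FastQC 0.11.3, aligned them to GRCm38 with STAR 2.5 and counted unique reads per gene without regard to strand with HTSeq 0.6.1p1. The deposited files held raw counts for 49568 gene symbols, and the rows for reads in no gene (8.41% to 15.7% of reads in the tested libraries) or in several (4.14% to 6.57%) were left out of library sizes and tests.

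Counts were tested with edgeR 4.0.16 in R 4.3.3 (filterByExpr, TMM, quasi-likelihood fit of 4 groups, 21 libraries, 7 comparisons, Benjamini-Hochberg adjustment over 20187 genes), and DESeq2 1.42.0 was an alternative. A call needed an adjusted p under 0.05 with a log2 fold change past 0.38 in either direction, the study's thresholds. Normalised counts were counts divided by the TMM effective library size and multiplied by the mean library size, and samples 4, 6 and 7 were put on that scale from a fit of all 24 libraries. Log2 CPM used a prior count of 2. The length comparison used genes with a mean log2 CPM over 3. On data simulated for WTEE vs WTSH, with 200 of 19923 genes changed, edgeR recovered 90.5% with 9 false calls. Every changed gene was given the same change of 1 log2 unit, up or down, and was drawn from genes above a floor on the mean count. This share therefore does not give the power for the small differences of most members.

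Library totals of 27410239 to 71907130 counts limit precision least for the abundant members, and the smallest group had 4 mice. Fold changes were given with the edgeR standard error. Exons, transcripts and positions came from GENCODE M21, and promoter windows from RefSeq. The members and the gene lists were chosen with earlier results of these data known. Named members were the 3 of highest level per kb in each subfamily, up to 5 of smallest p under 0.05 in each comparison, those whose groups did not overlap, the 5 most and the 5 least variable between mice, the 5 farthest above and below the WTSH range in samples 4 and 7, and 11 hippocampal channel genes, with up to 3 genes a list and comparison at p under 0.05, and a few of these are not reported here. Alternatives were DESeq2, other size factors, no filter, all 24 libraries, only the groups compared, a robust fit, the longest transcript as length and leaving out each library. Leaving out the 5 libraries rich in choroid plexus markers and running DESeq2 over all 24 libraries were chosen after seeing the data.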

Additional observations from a re-analysis of the deposited data

Results flagged for a closer look

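Within each group the highest or lowest mouse was set against the others for 52 named members, 208 groups in all, and 27 lay farther off than Dixon's 95% limit. Chance flags about 1 in 20 groups, but many of these members were named for their spread or their differences and many values come from 1 library, so the number cannot be read against that rate. Of the 27, 16 were the lowest value of WTEE sample 10, in normalised counts. In the Kv families these were Kcna1 (474), Kcna2 (7188), Kcna3 (43.4), Kcnc1 (5466), Kcnd1 (535), Kcnd3 (2770), Kcnh1 (1377), Kcnq3 (5196) and Kcnq5 (1919). Among inward rectifiers they were Kcnj6 (373.9), Kcnj10 (6447) and Kcnj16 (845), and the others were Kcnk9 (48.2), Kcnma1 (918), Kcnn2 (1417) and Kcnt1 (2949).

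The other 11 were spread over 8 libraries. In WTSH, sample 23 was highest for Kcna2 (13720) and Kcnma1 (6073), sample 19 lowest for Kcnd2 (4575) and highest for Kcnj13 (238), and sample 2 lowest for Kcnip1 (799). In KDSH, sample 8, the library rich in pituitary markers, was lowest for Kcnd2 (4640) and highest for Kcnn2 (2723). In WTEE, sample 16 was highest for Kcnf1 (5675) and sample 13 for Kcnh2 (2540), and in KDEE sample 20 was highest for Kcng3 (183) and sample 12 for Kcnj13 (739).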

How the results depend on the processing

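No potassium channel gene was called in any of the 7 comparisons under any alternative but one: DESeq2 over all 24 libraries called 2 for the housing average, Kcng3 (log2 fold change −0.72, adjusted p = 0.0481) and Kcnj13 (3.01, adjusted p = 0.0309). Calls rose for all genes too, since that fit called 233 of 49568 genes for the housing average, against 1 of 20187 in the main fit. Counts at an unadjusted p under 0.05 moved more, and the cause was not tested. The share of all genes moved as well, as with edgeR over 24 libraries to 18.3% for WTEE vs WTSH and 25.6% for the housing average. DESeq2 and the fit with no filter took in 91 members in place of 81. For WTEE vs WTSH the count of 2 became 18 of 91 with DESeq2 over 24 libraries (19.8%, against 10.6% of all genes). It was 16 with edgeR over 24, 5 with no filter and 1 with only the groups compared. Leaving out single libraries gave 1 to 7 (1 without WTEE sample 10 or WTSH sample 5, 4 without WTEE sample 16, 5 without WTEE sample 11 or WTSH sample 19, 7 without WTEE sample 21). For KDEE vs KDSH the 9 became 19 with only the groups compared and 4 to 22 without single libraries. For KDSH vs WTSH the 0 became 1 with DESeq2, 1 with DESeq2 over 24 libraries, 2 with only the groups compared, 1 without the 5 choroid plexus-rich libraries and 0 to 1 without single libraries. For KDEE vs WTEE single libraries gave 1 to 4 in place of 2 (1 without WTEE sample 11, 4 without KDEE sample 15 or WTEE samples 13 or 21). For the interaction the 1 became 2 with DESeq2 or edgeR over 24 libraries, 3 with no filter and 0 to 4 without single libraries. For the housing average the 15 became 27 of 91 with DESeq2 over 24 libraries (29.7%, against 15.4% of all genes). It was 23 with edgeR over 24 and 9 to 22 without single libraries. For the genotype average the 3 became 1 with DESeq2 or edgeR over 24 libraries and 0 to 5 without single libraries (5 without KDEE sample 12, 1 without KDEE sample 22, KDSH sample 8, WTEE sample 11 or WTSH sample 2).

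The log2 fold change of Kcnj13 for KDEE vs KDSH was −0.062 without the 5 choroid plexus-rich libraries, which hold all of its high values and were set aside after seeing the data, and 878 other values of named members kept their direction or their side of the threshold. With the longest transcript as length 15 levels per kb moved by more than the spread between mice and 19 did not. No paired analysis was possible because the groups share no sample numbers. The 10 untested members had at most 14 counts in a library, too few for a test here.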
